A study of Bos indicus x Bos taurus with 17 samples.

Results

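The genes of the mitochondrial ribosomal proteins (MRP genes) were measured by RNA-seq in fetal liver and skeletal muscle of cattle. Every gene of the deposited tables whose symbol was MRPL (large subunit) or MRPS (small subunit), a number and at most 1 further letter was taken, which gave 78 of 21048 genes, 49 with an MRPL symbol and 29 with an MRPS symbol. They lay on 27 chromosomes of the ARS-UCD1.2 assembly. All samples came from F1 fetuses of Nelore (Bos taurus indicus) and Holstein (Bos taurus taurus) parents at about day 105 of gestation, and 6 fetuses gave both tissues. Control-AI 2 and 4 were conceived by artificial insemination, and ART-Normal 1 to 4 were produced in vitro. The labels class all 6 as healthy. The study's methods give the ART-Normal fetuses a weight similar to that of controls, but ART-Normal 4 is in the labels and not among the fetuses the study lists. The sex of the fetuses was not used here, and no treatment beyond the mode of conception is given for these groups.

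Mitochondria keep their own ribosomes, which translate the small set of membrane proteins encoded by mitochondrial DNA (mtDNA), all of them parts of the respiratory chain and of ATP synthase. The proteins of these ribosomes are encoded in the nucleus, made in the cytosol and imported. Some descend from the proteins of the bacterial ribosome, whereas others were added during the evolution of mitochondria. Fetal liver is a blood-forming organ as well as a metabolic one, and fetal skeletal muscle is building its contractile fibres.

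The tissue labels matched their markers. Summed over the marker list, hepatocyte genes reached at least 39801 CPM (counts scaled to the TMM-normalized library size) in every liver library and at most 396 CPM in any muscle library. Skeletal muscle genes reached at least 22756 CPM in muscle and at most 47.2 CPM in liver. All of the 12 proliferation genes and 11 of 13 erythroid genes were higher in liver (edgeR, adjusted p of 0.05 or lower), as were all of the 7 macrophage genes and the 4 neutrophil genes tested of 5, while the 6 connective tissue genes and 3 of 4 endothelial genes were higher in muscle and the 3 adipocyte genes were below the filter. Library totals ranged from 12433300 to 43339598 counts. Control-AI 2 stood apart from the other fetuses. Its liver had 362145 CPM of hepatocyte markers and 25889 CPM of erythroid markers, where the other 5 livers had at most 73312 CPM and 8232 CPM. The 47.2 CPM of skeletal muscle genes in liver was also its value, with at most 11.7 CPM in the other livers. Likewise, its muscle had the 396 CPM of hepatocyte genes, with at most 68.1 CPM in the other muscles. It had the lowest library total of each tissue, at 18454088 counts in liver and 12433300 in muscle. Some genes that lie opposite another gene were also high in this fetus. ND6, an mtDNA gene on the other strand than ND5, had 574 CPM in its liver and 653 CPM in its muscle, and 104.6 CPM or less in every other library. STX3, opposite MRPL16, had 48.2 CPM in its liver and at most 7.19 CPM in the other livers. The part of these differences in the results on MRP genes was not tested, and results that rest on Control-AI 2 are given with and without it.

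All 78 MRP genes passed the filter on low values in every comparison, and the smallest count of any of them in any library was 63. Together they took 0.178% to 0.278% of the counts of a library. The counted region of each gene was its whole span, so levels are compared here between tissues or fetuses and not between genes.

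The MRP genes were, for the most part, higher in liver than in muscle. Of the 78, 47 were higher in liver (edgeR, adjusted p of 0.05 or lower), where 40.8% of the 12923 genes tested were higher in liver. A further 9 were higher in muscle, where 40.5% of all genes were, and 22 did not pass the threshold in either direction. The median log2 fold change of liver over muscle was 0.41 for MRP genes and 0.01 for all genes. With the fetus as a replicate block, 57 MRP genes were called, which were the same 56 and MRPL36. Differences were of moderate size: 7 MRP genes were over 2-fold higher in liver and 1 was over 2-fold higher in muscle. The lower and upper quartiles of the log2 fold change were 0.05 and 0.75 for MRP genes, and -0.96 and 0.86 for all genes. With library size alone as the scaling, 37 MRP genes were higher in liver and 10 in muscle, and the split over all genes moved from 5269 higher in liver and 5234 higher in muscle to 4483 and 5660. In bulk tissue, a larger share of cells that express a gene and more RNA per cell cannot be told apart.

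**Figure D1:**
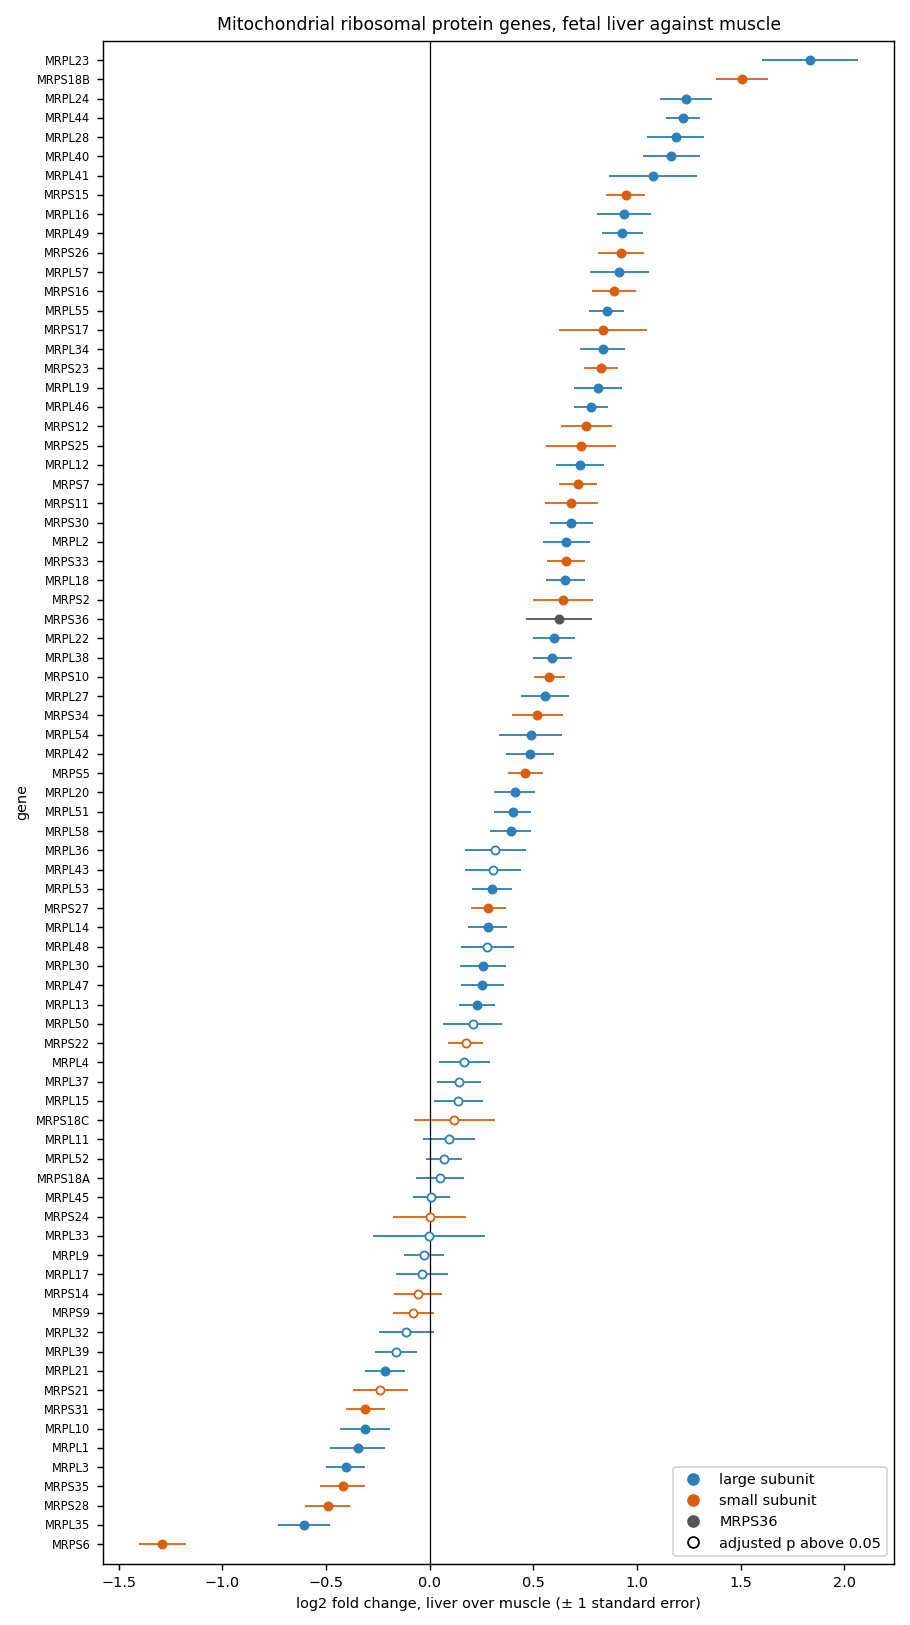
Log2 fold change of liver over muscle (horizontal axis, with bars of 1 standard error) for each of the 78 MRP genes, sorted from MRPS6 (-1.29) at the bottom to MRPL23 (1.84) at the top. Filled points passed the adjusted threshold in edgeR, open points did not, and colours show the subunit that holds the protein, with MRPS36 apart because it is not a ribosomal protein.

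With TMM scaling, the direction was shared by the fetuses. Within single fetuses, 56 to 65 of the 78 MRP genes were higher in liver, and the median log2 ratio of liver over muscle lay between 0.32 and 0.50. Of the 47 genes called higher in liver, 44 were higher there in all 6 fetuses, and of the 9 called higher in muscle 8 were higher there in all 6. The calls were made on these same libraries, and the matching share of all called genes is not given here. These 2 counts are thus no result particular to MRP genes. For 31 MRP genes all 6 liver libraries lay above all 6 muscle libraries, as they did for 31.6% of all genes tested, and for 3 (MRPS6, MRPS31 and MRPS35) all muscle libraries lay above all liver libraries, as they did for 32.9% of all genes. The tissues overlapped for the other 44. These counts depended on the scaling of Control-AI 2. With library size alone 29 of 78 MRP genes were higher in the liver of this fetus (median log2 ratio -0.18, against -0.51 for all genes tested), where the other 5 fetuses had 51 to 63 (medians of 0.19 to 0.43). Of the 47 genes called, 26 were then higher in liver in all 6 fetuses, and the livers lay above all muscles for 15 MRP genes (24.7% of all genes) and below them for 5 (35.9% of all genes).

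Called higher in liver but not so in every fetus were MRPL14, MRPL47 and MRPS36, and MRPL21 was called higher in muscle with 5 of 6 fetuses in that direction. Of these, MRPL21, MRPL47 and MRPL14 did not keep their calls. The MRPL21 call (edgeR, adjusted p = 0.0497) was lost with RLE scaling, the likelihood ratio test, DESeq2 or the filter of 10 counts, and without any 1 of the 4 ART-Normal fetuses. That of MRPL47 (edgeR, adjusted p = 0.0354) was lost with upper quartile or library-size scaling, with no filter, and without any 1 fetus other than ART-Normal 2. For MRPL14 (edgeR, adjusted p = 0.0135) the call was lost with library size alone (edgeR, adjusted p = 0.306) and without ART-Normal 3 (edgeR, adjusted p = 0.0864). Lost calls were not limited to genes that differed between fetuses. MRPL13 and MRPL30, higher in liver in all 6 fetuses, lost theirs with upper quartile or library-size scaling and without ART-Normal 3 or ART-Normal 4. With library size alone, 46 of the 56 calls were kept. The 4 ART-Normal fetuses alone, a choice made after seeing the data, gave 45 MRP genes higher in liver and 8 higher in muscle. The shares of all genes called in that fit are not given here. With all 6 fetuses, 40.8% of all genes were higher in liver and 40.5% in muscle.

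Summed over MRP genes, the level was 2339 to 2805 CPM in liver and 1940 to 2154 CPM in muscle, so the tissues did not overlap with TMM scaling. The ratio of liver over muscle within a fetus was 1.26 ± 0.07 (SD, n = 6), with a range of 1.18 to 1.36. With library size alone the tissues overlapped, at 1779 to 2780 CPM in liver and 1995 to 2229 CPM in muscle, because Control-AI 2 turned to 1779 CPM in liver and 2115 CPM in muscle, a ratio of 0.84, while the other 5 fetuses had ratios of 1.08 to 1.29. The large subunit summed to 1506 to 1855 CPM in liver and 1209 to 1373 CPM in muscle, while the small subunit summed to 819 to 928 CPM and 708 to 771 CPM. Each fetus had more of both subunits in its liver with TMM scaling. With library size alone Control-AI 2 had less of both, with ratios of liver over muscle of 0.86 for the large and 0.81 for the small subunit, and ART-Normal 1 was nearly level for the small subunit at 0.99. The sum over large subunit genes was 1.84 to 2.04 times the sum over small subunit genes in liver and 1.64 to 1.78 times in muscle, with no overlap between the tissues. The small subunit sum includes MRPS6, which alone had 43.0 to 63.9 CPM in liver and 100.3 to 144 CPM in muscle. A ratio without MRPS6 is not given here, so these values do not show a shift shared by the subunit's genes. Among the livers, Control-AI 2 had the lowest sums and Control-AI 4 the highest, so the controls enclosed the 4 ART-Normal fetuses.

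**Figure D2:**
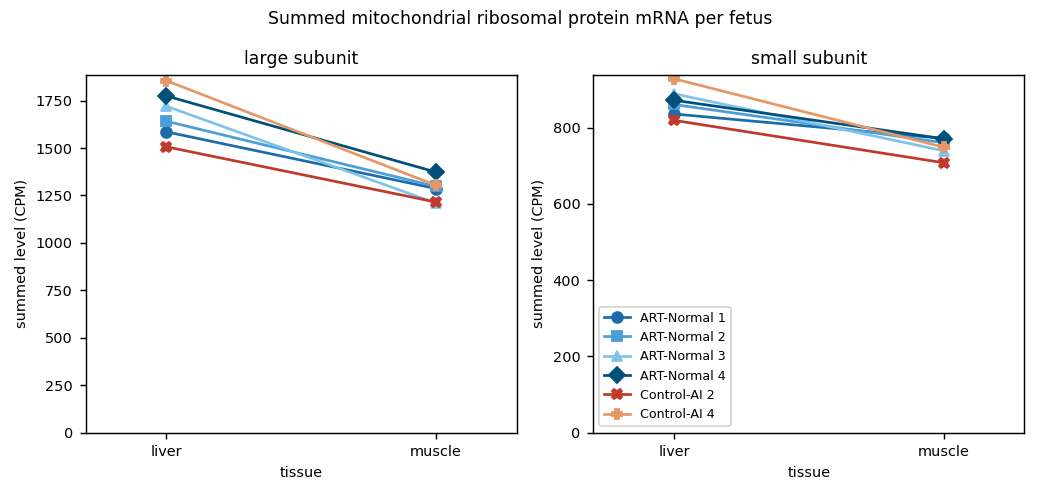
Summed level in CPM (vertical axis, from 0) of the genes of the large subunit (left) and of the small subunit (right) in liver and muscle, with a line for each of the 6 fetuses, all with TMM scaling. Every line falls from liver to muscle, from 1506 to 1855 CPM down to 1209 to 1373 CPM for the large subunit, whereas with library size alone both lines of Control-AI 2 would rise, as would that of ART-Normal 1 for the small subunit.

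Sorted by the subunit that holds the protein, which differs from the symbol for MRPS18A and MRPS30 of the large subunit, 30 of 51 genes of the large subunit were higher in liver and 5 in muscle, with a median log2 fold change of 0.32. In the small subunit 16 of 26 were higher in liver and 4 in muscle, with a median of 0.55. Sorted by origin, 25 of 45 genes with a bacterial counterpart were higher in liver and 7 in muscle (median 0.28), and 20 of 31 genes particular to mitochondria were higher in liver and 2 in muscle (median 0.48). None of the 21 mitochondrial additions to the large subunit was called higher in muscle, and 13 were called higher in liver. MRPL55 was left out of the sorting by origin. MRPS18A and MRPS18B, although relatives of the bacterial S18 protein, were counted as particular to mitochondria. These counts stand beside 40.8% of all genes called higher in liver and 40.5% called higher in muscle, and differences between these classes were not tested.

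MRPL23, a bacterial-type protein near the exit of the large subunit's tunnel, had the largest difference. The gene lies at chr29:49542745-49549286, 29771 bp from TNNT3, a skeletal muscle marker gene. It is 120276 bp from IGF2, a growth factor gene subject to imprinting, and a link to either gene was not tested. The liver level of MRPL23 was 30.4 CPM at the lowest, 79.1 at the median and 108 at the highest, and its muscle level was 17.5, 21.9 and 26.1 CPM. The lowest liver was that of Control-AI 2, and even it lay above all muscle libraries. The log2 fold change of liver over muscle was 1.84 ± 0.23 (SE; edgeR, adjusted p = 4.87e-06), and all 6 fetuses were higher in liver. Control-AI 4 and ART-Normal 4 had the highest livers, at 108 and 105 CPM.

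MRPS18B, one of 3 relatives of the bacterial S18 protein and a small subunit component, followed at chr23:28366315-28372878. It had 21.5 CPM at the lowest, 27.2 at the median and 37.0 at the highest in liver, against 8.12, 9.72 and 11.2 CPM in muscle. Its log2 fold change was 1.51 ± 0.13 (SE; edgeR, adjusted p = 5.45e-08). The highest liver was that of Control-AI 2, in which PPP1R10, on the opposite strand over MRPS18B, had 148 CPM against 57.9 to 66.8 CPM in the other livers. The other relatives had no called difference: MRPS18A, whose protein sits in the large subunit, had a log2 fold change of 0.05 ± 0.11 (SE; edgeR, adjusted p = 0.694), and MRPS18C, which sits in the small subunit, had 0.12 ± 0.20 (SE; edgeR, adjusted p = 0.585).

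MRPL44, which resembles ribonuclease III and is mutated in an inherited cardiomyopathy, gave the most even picture of the liver-high genes. It lies at chr2:112068965-112076913. The 6 livers held 27.3, 29.2 and 30.1 CPM at the lowest, median and highest, and the 6 muscles 11.4, 12.4 and 14.5 CPM. No muscle reached the level of any liver, and the log2 fold change was 1.22 ± 0.08 (SE; edgeR, adjusted p = 4.95e-09).

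MRPL24, MRPL28 and MRPL40 completed the genes named for the largest rise toward liver. MRPL24, an early-assembling bacterial-type protein, rose from a median of 15.1 CPM in muscle to 35.2 CPM in liver, a log2 fold change of 1.24 ± 0.13 (SE; edgeR, adjusted p = 4.95e-07). For MRPL28 the medians were 18.8 and 44.4 CPM and the log2 fold change was 1.19 ± 0.14 (SE; edgeR, adjusted p = 2.17e-06). MRPL40, a mitochondrial addition, went from 13.9 to 31.2 CPM, with a log2 fold change of 1.17 ± 0.14 (SE; edgeR, adjusted p = 2.23e-06). In all of these genes the lowest liver lay above the highest muscle. MRPL40 shares its position with LOC101906870 on the opposite strand, which averaged 177 CPM in liver and 68.5 CPM in muscle.

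MRPS6, a small subunit protein with a bacterial counterpart, went the other way. The gene lies at chr1:1390798-1455166. Muscle held 100.3 CPM at the lowest, 122 at the median and 144 at the highest, and liver held 43.0, 48.0 and 63.9 CPM. The log2 fold change of liver over muscle was -1.29 ± 0.11 (SE; edgeR, adjusted p = 9.22e-08), a level 2.45-fold higher in muscle, in 6 of 6 fetuses. SLC5A3, a myo-inositol transporter gene, lies inside the span of MRPS6 on the same strand and is listed at 0 counts in all 12 libraries, so reads of SLC5A3 and MRPS6 may not be told apart.

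The other genes higher in muscle differed by less than 2-fold. MRPL35 had a median of 21.8 CPM in muscle and 14.2 CPM in liver, with a log2 fold change of -0.61 ± 0.13 (SE; edgeR, adjusted p = 0.000478). Its lowest muscle, that of ART-Normal 3, was at 15.4 CPM and did not exceed the highest liver. For MRPS28 the medians were 29.1 and 20.2 CPM and the log2 fold change -0.49 ± 0.11 (SE; edgeR, adjusted p = 0.000737), with Control-AI 2 nearly level at 19.9 and 19.7 CPM. MRPS35, a mitochondrial addition to the small subunit, had a log2 fold change of -0.42 (edgeR, adjusted p = 0.00248), and all muscles lay above all livers. MRPL3, near the peptidyl transferase centre, had -0.41 (edgeR, adjusted p = 0.00129), and MRPL1, of the stalk where used tRNA leaves, had -0.35 (edgeR, adjusted p = 0.0264). The call on MRPL1 was lost without ART-Normal 3 or without ART-Normal 4.

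**Figure D3:**
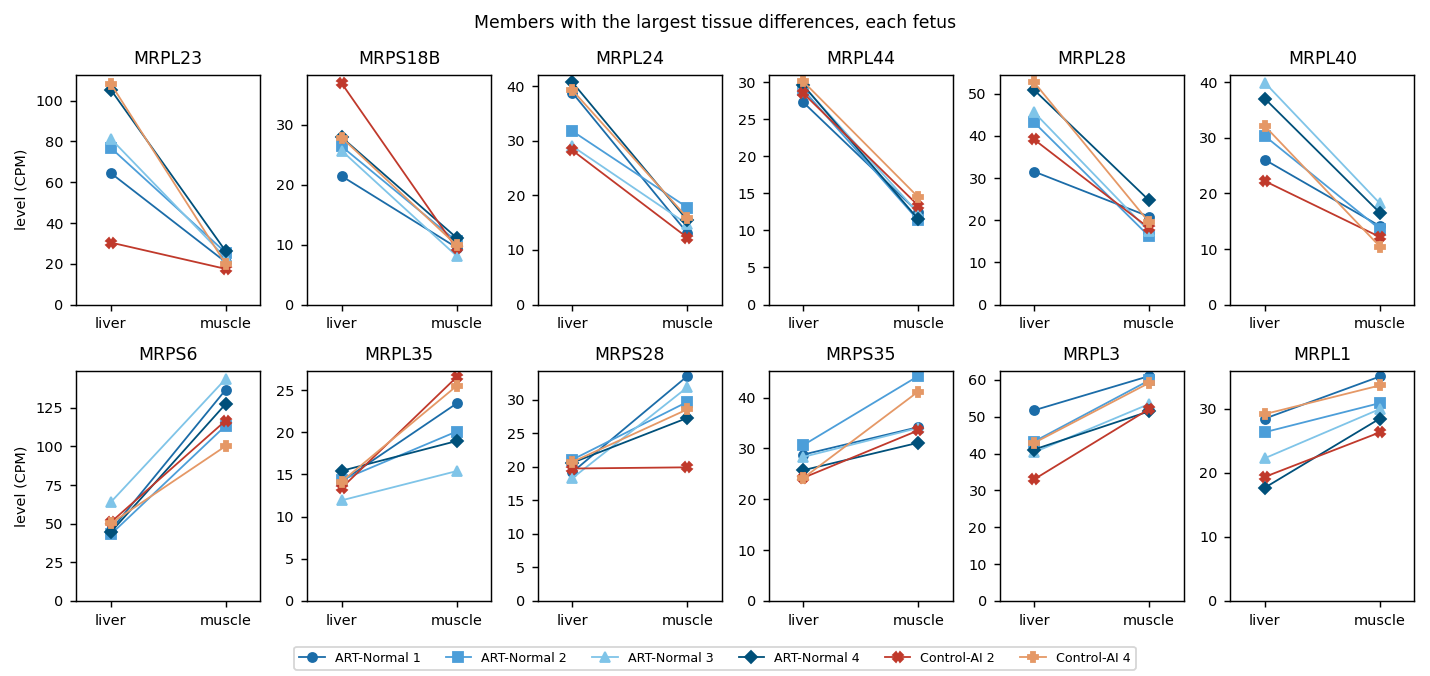
Level in CPM (vertical axes, each from 0) in liver and muscle for the 6 MRP genes with the largest rise toward liver (top) and the 6 with the largest rise toward muscle (bottom), with a line for each fetus. MRPL44 is tight in both tissues (27.3 to 30.1 CPM in liver), whereas in MRPL23 the Control-AI 2 liver, at 30.4 CPM, lies far under the others.

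The factor-binding stalk of the large subunit, where translation factors dock, held genes that differed in opposite directions. MRPL12, whose copies form the tip of the stalk, had a median of 32.9 CPM in liver and 19.6 CPM in muscle, with a log2 fold change of 0.73 ± 0.12 (SE; edgeR, adjusted p = 4.7e-05). MRPL10, which anchors MRPL12, was higher in muscle, with medians of 31.8 and 26.4 CPM, for a log2 fold change of -0.31 ± 0.12 (SE; edgeR, adjusted p = 0.0299). The MRPL10 call was lost without ART-Normal 2, 3 or 4, each left out alone. MRPL11, at the base of the stalk, had a log2 fold change of 0.09 ± 0.12 (SE; edgeR, adjusted p = 0.499), which became -0.05 with library size alone.

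Several small subunit genes are known from inherited deficiencies of the respiratory chain. MRPS16 had 31.8 to 47.2 CPM in liver and 18.9 to 24.6 CPM in muscle, and its log2 fold change was 0.89 ± 0.11 (SE; edgeR, adjusted p = 2.81e-06). MRPS34 overlapped between the tissues, at 37.0 to 59.6 CPM and 28.0 to 38.7 CPM, with a log2 fold change of 0.52 ± 0.12 (SE; edgeR, adjusted p = 0.00132). MRPS22 did not pass, with 0.17 ± 0.09 (SE; edgeR, adjusted p = 0.0763), although all 6 fetuses were higher in liver. MRPS12, at the decoding site, had 12.7 to 19.6 CPM in liver and 8.48 to 11.2 CPM in muscle, and a log2 fold change of 0.76 ± 0.12 (SE; edgeR, adjusted p = 6.19e-05).

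Among other large subunit genes, MRPS30, a mitochondrial addition, had a log2 fold change of 0.68 ± 0.10 (SE; edgeR, adjusted p = 3.15e-05), with no overlap between 22.4 to 28.7 CPM in liver and 13.8 to 18.5 CPM in muscle. MRPL45, which holds the ribosome to the inner membrane, had no called difference, with medians of 36.7 and 36.1 CPM, for a log2 fold change of 0.01 ± 0.09 (SE; edgeR, adjusted p = 0.941). MRPL36 had 0.32 ± 0.15 (SE; edgeR, adjusted p = 0.0597), and passed with the fetus as a replicate block (edgeR, adjusted p = 0.0433). MRPS36, despite its symbol, is a subunit of the 2-oxoglutarate dehydrogenase complex and not of the ribosome. It had a log2 fold change of 0.62 ± 0.16 (SE; edgeR, adjusted p = 0.00235), with Control-AI 2 going the other way at 13.4 CPM in liver and 17.2 CPM in muscle.

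Of the 78 MRP genes, 17 overlapped another gene, and 9 of these lay opposite a gene of at least the same mean level in liver or muscle (MRPL2, MRPL14, MRPL40, MRPL49, MRPL55, MRPL57, MRPS12, MRPS18B and MRPS18C). Of the 61 with no overlapping gene, a choice made after seeing the data, 34 (55.7%) were higher in liver and 8 (13.1%) in muscle, with a median log2 fold change of 0.39. Of the 17 with an overlapping gene, 13 (76.5%) were higher in liver and 1 (5.88%) in muscle, with a median of 0.66. Of all genes, 40.8% were higher in liver and 40.5% in muscle, and the 2 sets were not tested against each other. Of those opposite an abundant gene, MRPL49 (0.93), MRPL57 (0.91), MRPL55 (0.85), MRPL2 (0.66) and MRPL14 (0.28) were called higher in liver besides the genes described above. The labels describe strand-specific libraries, and the strand setting of the counting is not given in the sources used here, so the values of these 9 genes are uncertain.

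Conception by assisted reproduction was compared with artificial insemination in each tissue. In liver 0 of the 78 MRP genes passed the threshold (edgeR, adjusted p of 0.05 or lower; 0% of the 11304 genes tested passed), and 3 had an unadjusted p under 0.05, where 8.39% of all genes did. In muscle 0 passed (0.00855% of the 11695 genes tested passed), and 4 had an unadjusted p under 0.05, where 9.19% of all genes did. The likelihood ratio test of edgeR and the Wald test of DESeq2 likewise called 0 MRP genes in either tissue. Over MRP genes, the median difference of ART-Normal from Control-AI on the log2 scale was -0.04 in liver and 0.02 in muscle, against 0.01 and 0.00069 for all genes, and the largest absolute values were 0.51 and 0.72. The groups did not overlap for 2 MRP genes that were higher and 3 that were lower in ART-Normal liver (18.5% of all genes did not overlap), and for 10 that were higher and 5 that were lower in ART-Normal muscle (15.5% of all genes). With 4 fetuses against 2 there are 15 splits, so an exact permutation test of a single gene has 0.0667 as its smallest possible p and was not run.

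MRPL22, a protein lining the exit tunnel, had the smallest p in liver. The livers of ART-Normal 1 to 4 held 56.8, 52.1, 55.0 and 51.7 CPM, whereas the control livers held 35.7 (Control-AI 2) and 42.6 CPM (Control-AI 4). Both controls lay under all ART-Normal livers, and the log2 fold change was 0.44 ± 0.13 (SE; edgeR, adjusted p = 0.503). Leaving out Control-AI 2 gave 0.35, and leaving out Control-AI 4 gave 0.57. In muscle the 4 ART-Normal fetuses had 28.6 to 35.5 CPM and the controls 28.0 and 35.5 CPM, a log2 fold change of 0.02 (edgeR, adjusted p = 0.984).

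MRPS18C had the largest differences in both tissues, and they rested on 1 fetus. In liver it reached 21.9, 18.3, 18.1 and 17.8 CPM in ART-Normal 1 to 4, 33.5 CPM in Control-AI 2 and 20.2 CPM in the other control. In muscle the values were 18.5, 19.9, 14.5 and 14.4 CPM, then 38.6 CPM and 16.4 CPM. Control-AI 2 was high in both tissues, and Control-AI 4 lay among the ART-Normal fetuses. These log2 fold changes, -0.51 in liver (edgeR, adjusted p = 0.583) and -0.72 in muscle (edgeR, adjusted p = 0.493), became -0.08 and 0.03 without Control-AI 2. MRPS18C lies opposite ABRAXAS1, which had 17.9 CPM in liver and 25.5 CPM in muscle in Control-AI 2, and 15.3 to 28.1 CPM in the other libraries.

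MRPL43, in liver, was measured at 11.9, 14.2, 17.7 and 15.5 CPM in ART-Normal 1 to 4, at 24.5 CPM in Control-AI 2 and at 17.2 CPM in Control-AI 4. The resulting log2 fold change of -0.51 (edgeR, adjusted p = 0.589) was -0.21 without Control-AI 2. MRPS18B, the fourth by p in liver, had -0.37 (edgeR, adjusted p = 0.589) and -0.13 without Control-AI 2.

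In muscle, MRPS36 was at 9.93, 12.4, 9.26 and 9.96 CPM in ART-Normal 1 to 4 while Control-AI 2 was at 17.2 CPM and Control-AI 4 at 13.5 CPM. The controls lay above all ART-Normal muscles, with a log2 fold change of -0.58 ± 0.20 (SE; edgeR, adjusted p = 0.413) that was -0.39 without Control-AI 2. MRPL35 lay between 15.4 and 23.4 CPM in the ART-Normal muscles, lowest in ART-Normal 3, and at 26.5 and 25.5 CPM in the controls. Here both controls were alike and high, and the log2 fold change was -0.44 ± 0.18 (SE; edgeR, adjusted p = 0.502). MRPL40 was higher in ART-Normal muscle, at 14.1, 13.6, 18.2 and 16.5 CPM against 12.2 and 10.4 CPM, with a log2 fold change of 0.45 ± 0.19 (SE; edgeR, adjusted p = 0.517).

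**Figure D4:**
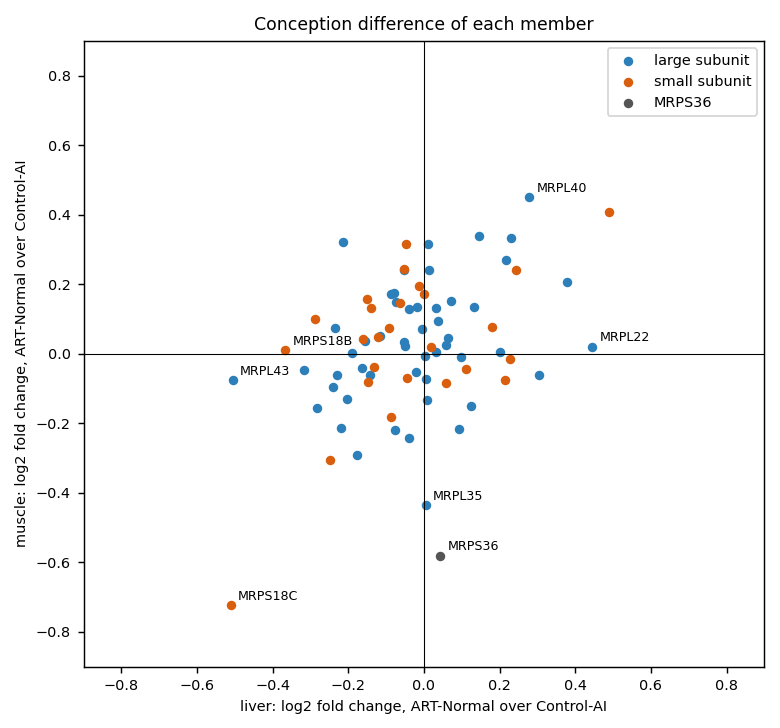
Log2 ratio of ART-Normal to Control-AI levels in liver (horizontal axis) and in muscle (vertical axis) for the 78 MRP genes, with those named for the smallest p labelled. None passed the adjusted threshold in edgeR, and MRPS18C, at -0.51 and -0.72, lies farthest out and rests on Control-AI 2.

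The difference between the tissues in the effect of conception, tested as an interaction, passed for 0 of the 78 MRP genes (0% of the 12923 genes tested passed; edgeR, adjusted p of 0.05 or lower), and 1 had an unadjusted p under 0.05, where 5.55% of all genes did. That gene was MRPL22, with a difference of 0.43 on the log2 scale (edgeR, adjusted p = 0.881). Leaving out Control-AI 2 changed it to 0.50, and leaving out the other control to 0.40. MRPS36 had 0.63 (edgeR, adjusted p = 0.907), which became 0.17 when Control-AI 2 was left out and 1.198 when it was the lone control. MRPL35 had 0.45 (edgeR, adjusted p = 0.925), with 0.40 and 0.53 in those same 2 fits.

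Control-AI 2 decided several values. Compared with the average over the remaining 5 fetuses in the same tissue, its liver was lowest in MRPL23 (log2 ratio -1.51), in MRPS17 (-1.36) and in MRPL33 (-1.23), and its muscle was high in MRPS18C (1.18) and low in MRPL33 (-0.97) and MRPS17 (-0.82). MRPS17, a bacterial-type protein of the small subunit, had 6.63 CPM in the Control-AI 2 liver and 15.1 to 19.5 CPM in the other livers. MRPL33, a small bacterial-type protein of the large subunit, had 4.49 CPM there and 8.83 to 13.9 CPM in the other livers. When Control-AI 4 was left out, so that Control-AI 2 stood as the lone control and was assumed to vary like the ART-Normal fetuses, MRPL23 (1.41; edgeR, adjusted p = 0.00995) and MRPS17 (1.39; edgeR, adjusted p = 0.011) were called higher in ART-Normal liver. MRPS18C was then called lower in liver (-0.84; edgeR, adjusted p = 0.0325) and in muscle (-1.22; edgeR, adjusted p = 0.00104). With Control-AI 2 left out, 0 MRP genes were called in either tissue, and the log2 fold changes in liver were -0.39 for MRPL23 and -0.03 for MRPS17.

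Among the 4 ART-Normal fetuses, MRP genes varied about as other genes did. The median SD of log2 CPM over the 4 fetuses was 0.16 for MRP genes and 0.19 for all genes in liver, and 0.15 and 0.17 in muscle. MRPL41, a mitochondrial addition to the large subunit, varied most in liver (SD 0.55), with 21.8, 34.5, 48.8 and 49.3 CPM. In muscle MRPS25 varied most (SD 0.42), with 14.1, 9.85, 17.5 and 19.5 CPM.

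Proteins of the same ribosome that carry other symbols were measured as a separate list. For this and the lists that follow, the counts stand beside 40.8% of all genes called higher in liver and 40.5% called higher in muscle, and no list was tested against other genes. Of 5 such genes, 4 were higher in liver and 0 in muscle, with a median log2 fold change of 0.39. GADD45GIP1, a large subunit protein also known for a role in the cell cycle, had 30.6 to 49.3 CPM in liver and 10.5 to 15.9 CPM in muscle, and a log2 fold change of 1.75 ± 0.14 (SE; edgeR, adjusted p = 2.66e-08). DAP3, a GTP-binding small subunit protein first known from cell death, had 0.58 (edgeR, adjusted p = 9.03e-05), AURKAIP1 had 0.39 (edgeR, adjusted p = 0.0023) and PTCD3 had 0.31 (edgeR, adjusted p = 0.00789). CHCHD1 had 0.06 (edgeR, adjusted p = 0.632).

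The factors that drive mitochondrial translation followed with 7 of 13 higher in liver and 1 higher in muscle, and with 4 higher in liver when ART-Normal 1 was left out. TUFM, the elongation factor that brings tRNA to the ribosome, had 84.0 to 115 CPM in liver and 60.0 to 70.1 CPM in muscle, and a log2 fold change of 0.70 ± 0.08 (SE; edgeR, adjusted p = 2.14e-06). TSFM, its exchange factor, had 0.50 (edgeR, adjusted p = 0.000901). MTIF3, an initiation factor, had 1.41 ± 0.28 (SE; edgeR, adjusted p = 0.000305), and Control-AI 2 was highest in both tissues, at 44.4 and 26.4 CPM against at most 27.2 and 11.7 CPM in the other fetuses. GUF1, a back-translocating factor, had -0.46 (edgeR, adjusted p = 0.00371).

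Of the assembly factors of the mitochondrial ribosome, 12 of 27 (44.4%) were higher in liver and 8 (29.6%) higher in muscle, near the shares of all genes, with a median log2 fold change of 0.21, while MPV17L2 was below the filter. NSUN4, a methyltransferase of the small subunit's rRNA, had 27.3 to 33.5 CPM in liver and 15.2 to 18.04 CPM in muscle (log2 fold change 0.88; edgeR, adjusted p = 3.07e-07). The GTPases MTG2 (0.70; edgeR, adjusted p = 0.00245) and GTPBP10 (0.64; edgeR, adjusted p = 0.000722), which act on the large subunit, were higher in liver as well. RPUSD4, a pseudouridine synthase of the large subunit's rRNA, was higher in muscle, at 14.5 to 16.8 CPM against 6.42 to 10.9 CPM (-1.01; edgeR, adjusted p = 2.94e-06).

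Of 17 genes of mitochondrial transcription and RNA processing, 9 were higher in liver and 2 in muscle. HSD17B10, a subunit of mitochondrial RNase P that also degrades fatty and amino acids, had 118 to 173 CPM in liver and 28.0 to 35.2 CPM in muscle, a log2 fold change of 2.27 ± 0.12 (SE; edgeR, adjusted p = 3.01e-10). REXO2, which degrades short RNAs, had 1.79 (edgeR, adjusted p = 6.5e-09), and MTERF1, which binds mtDNA, had 0.95 (edgeR, adjusted p = 1.88e-07). MTERF2 was higher in muscle (-0.91; edgeR, adjusted p = 0.0109). It had 61.2 CPM in liver and 159 CPM in muscle in Control-AI 2 and at most 25.7 and 40.9 CPM in the other fetuses, and its log2 fold change was -0.78 without Control-AI 2.

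The mRNAs that these ribosomes translate are encoded by mtDNA. Of 13 mtDNA-encoded genes, 0 were higher in liver (edgeR, adjusted p of 0.05 or lower; 40.8% of all genes), 3 were higher in muscle (23.1%, against 40.5% of all genes) and 10 did not pass, with a median log2 fold change of -0.22. Whether they differed from the MRP genes was not tested. COX3, a cytochrome c oxidase subunit, had 2212 to 3120 CPM in liver and 3816 to 4774 CPM in muscle (-0.63; edgeR, adjusted p = 0.00154). ND2, of complex I, had -0.49 (edgeR, adjusted p = 0.0093), and ATP8, which overlaps ATP6 on the same strand, had -1.01 (edgeR, adjusted p = 0.0186). ND6 was called higher in liver without Control-AI 2 (1.21; edgeR, adjusted p = 3.02e-06), without Control-AI 4 (1.01; edgeR, adjusted p = 0.00121) and with the fetus as a replicate block (1.00; edgeR, adjusted p = 0.000942), which made 1 of 13. The libraries were made from poly(A)-selected RNA, and how that selection acts on mtDNA-encoded mRNAs was not tested.

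**Figure D5:**
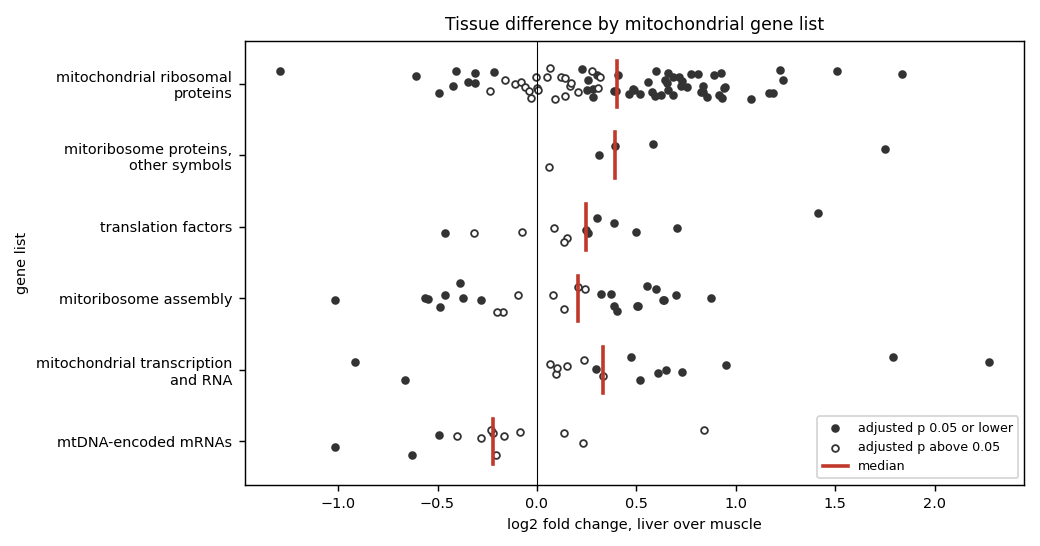
Log2 fold change of liver over muscle (horizontal axis) for each gene of the MRP set and of 5 other lists of mitochondrial gene expression, with a red bar at each median and filled points for genes that passed the adjusted threshold in edgeR. The median is 0.41 for MRP genes and -0.22 for mtDNA-encoded mRNAs.

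For conception, 0 genes of any of these 5 lists passed the threshold in liver or in muscle (edgeR's quasi-likelihood test). The likelihood ratio test of edgeR called MTERF2 in muscle and ND6 in both tissues, and DESeq2 called ND6 in muscle, all lower in ART-Normal. With Control-AI 2 as the lone control, genes called lower in ART-Normal in both tissues were MTIF2, MTIF3, RPUSD3, MTERF2 and ND6. With Control-AI 2 left out, 0 genes of these lists were called.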

How the data were processed

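RNA was extracted from liver and skeletal muscle of 6 fetuses, captured with oligo(dT), made into strand-specific libraries and read as 150 bp pairs. The authors deposited raw counts per gene in which each gene's region was its full span on the ARS-UCD1.2 assembly. The submitters' processing notes name FastQC 0.11.7, HISAT2 2.1.0, Cufflinks, SAMtools, featureCounts and edgeR 3.24.3, and the strand setting of the counting is not given in the sources used here. A further 14 count columns, 7 per table, matched no sample of the labels and were not used. The deposited tables of the authors' comparisons (log2 fold change, log2 CPM, likelihood ratio score, p-value and FDR) were not used. Kidney was not analysed here.

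From the deposited counts, edgeR 4.0.16 in R 4.3.3 gave TMM-normalized CPM and quasi-likelihood tests over all genes with at least 5 CPM in every library of a group; p-values were adjusted by Benjamini-Hochberg and called at 0.05. Tissues were compared over 12 libraries with conception as a covariate, conception within each tissue over 6 libraries without covariates, and their interaction over 12 libraries. Standard errors were derived from the F statistic. Ratios between libraries used CPM plus 0.5. The procedure was run on simulated counts, drawn independently for each library with the same spread for all genes. They held no pairing of tissues and no outlying fetus, so that run does not cover these features of the data. Replicates are separate fetuses. The tissues of a fetus are paired by design, and their deviations from the group means correlated across 12923 genes at r of 0.36 in the controls (which are mirror images with 2 fetuses) and at 0.21, 0.04, 0.08 and 0.31 in ART-Normal 1 to 4. The labels give no sequencing batch. Standard errors and p-values rest on the spread between libraries of these fetuses, estimated with information shared across genes. The main tissue fit had no fetus term, so its standard errors do not measure the spread of the tissue difference across fetuses. For MRPL33 the standard error was 0.27 in that fit and 0.12 with the fetus as a block.

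Alternatives were RLE, upper quartile and library-size scaling, the likelihood ratio test, DESeq2 1.42.0, a filter of 10 counts per library or none, ART-Normal 1 to 3 only, the fetus as a block, a joint fit of both tissues, and the omission of each fetus. The MRP genes, the lists and the tests were chosen with earlier results of these data known. MRP genes named are the 6 with the largest called difference toward each tissue and 1 direction in all fetuses, the 4 smallest p per tissue for conception and 3 for the interaction, a list of known roles, those where Control-AI 2 departs most, and those opposite an equally abundant gene. Of other lists, up to 4 called genes with the largest difference are named. MRPS25, MRPL41, MRPS31, MRPS35, MRPL13, MRPL21, MRPL30 and MRPL47, where they stand outside these rules, were named after their values were seen. So were ND6, MTIF2, RPUSD3, PPP1R10, STX3, MPV17L2, SLC5A3, TWNK, IGF2 and TNNT3. Protein and promoter sequences were not analysed here.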

Additional observations from a re-analysis of the deposited data

Results flagged for a closer look

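In each of 70 groups of 4 ART-Normal libraries, the level of a named gene was searched for a fetus far from the other 3, and chance alone marks about 1 in 20 such groups. Here 2 were marked, which is fewer than that rate would give. MRPS18C had 21.9 CPM in the liver of ART-Normal 1 and 17.8 to 18.3 CPM in the livers of the other ART-Normal fetuses. MRPS6 had 63.9 CPM in the liver of ART-Normal 3, where the other ART-Normal livers had 43.0 to 45.7 CPM, and this liver still lay under every muscle library.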

How the results depend on the processing

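Of 770 recomputed counts, medians and sums, 741 stayed within 1.5 times (counts) or 1 SD (medians and sums) of the reported value, and of 720 recomputed values of single genes 688 kept their direction and their side of the threshold. Here the cause of the other changes was not tested. Library size alone moved the median log2 fold change of MRP genes to 0.26 between tissues, where that of all genes fell to -0.13, and to 0.16 (0.21 for all genes) for conception in liver. It gave a mean summed level of 2142 CPM in muscle, and 2 other-symbol proteins, 3 translation factors and 7 assembly factors higher in liver and 6 mtDNA-encoded genes higher in muscle. The likelihood ratio test called 1 gene of transcription and RNA lower in ART-Normal muscle and 1 mtDNA-encoded gene lower in each tissue, and DESeq2 called 1 mtDNA-encoded gene lower in muscle.

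With the fetus as a replicate block, which pairs the tissues, 48 MRP genes were higher in liver and 9 in muscle, 2 translation factors were higher in muscle, and 1 mtDNA-encoded gene was higher in liver. For conception within 1 tissue no paired analysis was possible because the groups hold different fetuses.

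Leaving out each fetus in turn gave 43 to 47 MRP genes higher in liver and 6 to 10 higher in muscle, 4 to 7 translation factors higher in liver, and 0 to 1 mtDNA-encoded genes higher in liver. For conception, MRP genes called higher in ART-Normal liver ranged from 0 to 2, those called lower from 0 to 1 in liver and from 0 to 1 in muscle, and the median from -0.095 to 0.12 in liver and from -0.026 to 0.10 in muscle. In each tissue, those called lower in ART-Normal ranged from 0 to 2 for translation factors, and from 0 to 1 for assembly factors, for transcription and RNA, and for mtDNA-encoded genes. The calls for conception that these ranges add were made with Control-AI 2 as the lone control.

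Among genes that did not pass, the sign of the tissue difference turned for MRPL11 (-0.049), MRPL45 (-0.14), MRPS18A (-0.091), MRPS18C (-0.048) and CHCHD1 (-0.079) with library size alone, for MRPL45 (-0.050) and MRPS18A (-0.0050) with upper quartile scaling, for MRPL45 (-0.00626) without a filter and for MRPL33 (0.015) with at least 10 counts. Leaving out a fetus gave ranges of -0.054 to 0.053 for MRPL33, -0.040 to 0.028 for MRPL45, -0.0056 to 0.079 for MRPS18A and -0.022 to 0.13 for CHCHD1, and of -1.22 to 0.032 for the conception difference of MRPS18C in muscle. The conception comparison is limited by its 2 controls, of which 1 stood apart.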

Other observations

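Other gene groups of energy metabolism and translation were counted in lists added after the data were seen. Of all genes, 40.8% were higher in liver and 40.5% in muscle, and differences between lists were not tested. Of 82 nuclear genes of the respiratory chain and ATP synthase, 40 were higher in liver and 9 in muscle (edgeR, adjusted p of 0.05 or lower), with a median log2 fold change of 0.28. Of 81 genes of cytosolic ribosomal proteins, 3 (3.7%) were higher in liver and 20 (24.7%) in muscle, with a median of -0.28. Their summed level was lowest in Control-AI 2 in both tissues. It was 25985 CPM in liver and 29219 CPM in muscle, against at least 36578 and 45586 CPM in the other fetuses.

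Many MRP genes start close to another gene on the opposite strand. In the 1000 bp upstream of the start, 21 of 78 MRP genes (26.9%) had the start of such a gene, and 1802 of all 21048 genes (8.56%) did. Partner starts downstream of a gene's own start were not counted. The 21048 genes include those below the filter on low values, which all 78 MRP genes passed, so the 2 shares come from unlike sets. The partner had the same sign of tissue difference for 13 of the 19 with a partner that was tested. The pair of MRPL46 and MRPS11 enters this count from both sides. The share among all such pairs was not computed, and 60 of the 78 MRP genes had a log2 fold change above 0. MRPL46 and MRPS11, of the large and the small subunit, start 41 bp apart on chromosome 21, at chr21:19474872-19484145 and chr21:19484186-19495145, and were both higher in liver, with log2 fold changes of 0.78 and 0.68 (edgeR, adjusted p = 7.57e-07 and 0.000197) in all 6 fetuses. MRPL43 starts 60 bp from TWNK, the mtDNA helicase, which had 2.02 (edgeR, adjusted p = 1.79e-10) where MRPL43 had 0.30 (edgeR, adjusted p = 0.0515).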
